A study of Homo sapiens with 5 samples.

Results

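The miR-26 family was examined in small RNA libraries of MCF10A, a human breast epithelial line that was immortalized without becoming tumorigenic. Its members were chosen by name: the 5 human rows for miR-26a and miR-26b (hsa-miR-26a-5p, hsa-miR-26a-1-3p, hsa-miR-26a-2-3p, hsa-miR-26b-5p and hsa-miR-26b-3p; the species prefix is mostly left out below), of 2565 human miRNA rows in the deposited count tables. The detached group (2 libraries) was kept from adhering by a 2% poly-HEMA coating of the dish, and the attached group (3 libraries) grew on uncoated plates. The time label is 24 h for detached and 0 h for attached libraries, although the design text states 24 h for either group. All 5 libraries share 1 cell line and 1 growth medium with horse serum, epidermal growth factor, insulin, cholera toxin and hydrocortisone. Whether replicates came from separate cultures is not stated, and the p-values rest on a spread that may be technical. The comparison asks whether miRNA levels differ between suspended and adherent epithelial cells.

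miR-26a and miR-26b are made from hairpins inside introns of genes for small C-terminal domain phosphatases, enzymes that remove phosphates from the tail of RNA polymerase II. A hairpin is cut into a guide arm, which is loaded into Argonaute and pairs with target mRNAs mostly through its seed (bases 2 to 8), and a passenger arm, which is largely degraded. For miR-26 the 5p arm is the guide, and its described targets include EZH2, the methyltransferase of Polycomb repressive complex 2, CDK6 and cyclins of the G1 phase.

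The hairpins lie on 3 chromosomes (hg38, GENCODE 29). MIR26A1 is at chr3:37969404-37969480 on the plus strand, in intron 5 of 7 of the principal coding transcript of CTDSPL. MIR26A2 is at chr12:57824609-57824692 on the minus strand, in intron 5 of 7 of CTDSP2. MIR26B is at chr2:218402646-218402722 on the plus strand, in intron 4 of 6 of CTDSP1. Each hairpin has its host's strand and overlapped 0 exons of the host transcripts that span it. The hairpin sequences are shown because they determine which reads can tell the loci apart (RefSeq, GRCh38.p14, each 5′ to 3′ on its own strand, with both mature arms in capitals, the 5p arm first).
MIR26A1: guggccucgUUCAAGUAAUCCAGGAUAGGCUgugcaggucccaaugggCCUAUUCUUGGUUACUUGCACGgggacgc
MIR26A2: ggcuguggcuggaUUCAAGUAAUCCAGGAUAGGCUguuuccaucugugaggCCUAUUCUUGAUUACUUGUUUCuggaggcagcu
MIR26B: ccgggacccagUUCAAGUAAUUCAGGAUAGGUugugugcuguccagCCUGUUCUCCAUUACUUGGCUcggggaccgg

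The mature sequences, with the seed in capitals, fall into groups by seed (RefSeq, GRCh38.p14). The guides miR-26a-5p and miR-26b-5p share the seed UCAAGUA with miR-1297 and miR-4465, from chromosomes 13 and 6. The passenger arms of both miR-26a loci share a seed of their own, and miR-26b-3p has another.
miR-26a-5p: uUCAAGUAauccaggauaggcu
miR-26b-5p: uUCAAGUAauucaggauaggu
miR-1297: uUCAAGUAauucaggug
miR-4465: cUCAAGUAgucugaccagggga
miR-26a-1-3p: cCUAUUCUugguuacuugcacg
miR-26a-2-3p: cCUAUUCUugauuacuuguuuc
miR-26b-3p: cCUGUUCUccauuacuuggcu

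Counted from 1 at the 5′ end, miR-26a-5p and miR-26b-5p differed at 2 of 21 shared positions (C11U and C21U, miR-26a-5p base first), and miR-26a-5p is 1 nt longer. MIR26A1 and MIR26A2 give the same miR-26a-5p, so its counts cannot be divided between CTDSPL and CTDSP2. Their passenger arms differed at 5 of 22 positions (G11A, C19U, A20U, C21U and G22C, miR-26a-1-3p base first), so miR-26a-1-3p marks the CTDSPL locus and miR-26a-2-3p the CTDSP2 locus. How reads that match several names were assigned is not given in the sources used here. The division between miR-26a-5p and miR-26b-5p is uncertain to that extent, and so is that between the passenger arms of miR-26a. Before position 19 those passenger arms differ only by G11A. The 35 rows that carry a miR-26 name of another species held 0 counts in all.

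The libraries held 8805009 to 15793173 human miRNA counts, and levels are given as CPM, counts per 1000000 human miRNA counts after TMM scaling for composition. Attached replicate 2 stood apart: its Spearman correlation with the other libraries over 697 tested miRNAs lay between 0.812 and 0.857, and the remaining 4 correlated with each other at 0.927 to 0.961. The main results are therefore also given without it. All 5 listed epithelial markers (miR-200c-3p, miR-141-3p, miR-205-5p, miR-200b-3p and miR-203a-3p) were tested, and they summed to 84412 to 117508 per 1000000 human miRNA counts in detached and 40907 to 92847 in attached libraries. On the same scale the 5 blood markers (3 of them tested) summed to 18.0 to 18.7 in detached and 1.36 to 16.6 in attached libraries. The 5 fibroblast and mesenchymal markers (2 of them tested) summed to 18.3 to 57.8 in detached and 4.46 to 11.9 in attached libraries, with 0 of the 2 passing. Without attached replicate 2, both tested fibroblast and mesenchymal markers passed (median log2 fold change 3.64) and so did 1 of 5 epithelial markers (median 0.37), against 23 of all 679 tested (3.39%, median -0.06). The 2 endothelial, 2 neural and 4 muscle markers and the liver marker were each summed by list. No list exceeded 34.6 in any library, a value reached by the endothelial list. The muscle list summed to 0.0949 to 11.7 in detached and 0 to 1.399 in attached libraries, and 2 muscle markers were at 0 in every library. The part of these other cell types' miRNAs in the results below was not tested.

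The family was present as its guides, and detached and attached libraries overlapped for all 5 members. The 5 members passed the low-count filter, and 0 of them passed edgeR's quasi-likelihood test at a Benjamini-Hochberg adjusted p under 0.05, where 0 of all 697 tested miRNAs did (0%). None of the 5 had an unadjusted p under 0.05, which 49 of the 697 had in either direction (7.03%), 16 of them lower (2.3%). The groups did not overlap in 203 of the 697 (29.1%), with both detached libraries below all attached ones in 99 (14.2%) and above them in 104 (14.9%). The guides made up between 99.4% and 99.9% of the family's counts in every library. The mean level followed the same order in both groups: miR-26a-5p, miR-26b-5p, miR-26b-3p, miR-26a-2-3p, miR-26a-1-3p. Of neighbours in that order, ranges over the libraries overlapped for the guides, for miR-26b-3p and miR-26a-2-3p, and for the passenger arms of miR-26a. Every guide value exceeded every passenger value. Within single libraries, miR-26a-2-3p exceeded miR-26a-1-3p in all 5. The guide miR-26a-5p exceeded miR-26b-5p except in attached replicate 2, and miR-26b-3p exceeded miR-26a-2-3p except in attached replicate 1. The arms differ in length by at most 1 nt, and whether the libraries captured their different sequences equally was not tested.

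hsa-miR-26a-5p, the guide made from both CTDSPL and CTDSP2, measured 8759 and 7593 CPM in detached replicates 1 and 2, against 10899, 4993 and 5481 CPM in attached replicates 1, 2 and 3. Attached replicate 1 was the highest library and attached replicate 2 the lowest, with both detached libraries between them. The group means were 8176 ± 824 CPM in detached (SD, n = 2) and 7124 ± 3278 CPM in attached cells (SD, n = 3). The log2 fold change, detached over attached, was 0.20 (SE 0.57, 95% interval -1.10 to 1.50, edgeR adjusted p 0.946). The interval covers folds of 0.466 to 2.83, so changes within that range were not excluded by these libraries. Among human miRNAs by count, miR-26a-5p ranked 17 in both detached libraries and 16, 33 and 24 in the attached ones.

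hsa-miR-26b-5p, the guide from CTDSP1, measured 5905 and 3924 CPM in the detached libraries, against 5366, 6742 and 4141 CPM in the attached ones. Here attached replicate 2 was the highest library and detached replicate 2 the lowest. The means were 4915 ± 1401 CPM in detached (SD, n = 2) and 5417 ± 1301 CPM in attached cells (SD, n = 3). The log2 difference fitted was -0.14 (SE 0.54, 95% interval -1.38 to 1.10, edgeR adjusted p 0.961). Its highest library stood 1.72 times over its lowest, the narrowest such range of the 5 members. It ranked 22 and 34 in detached and 28, 27 and 30 in attached libraries.

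**Figure D1:**
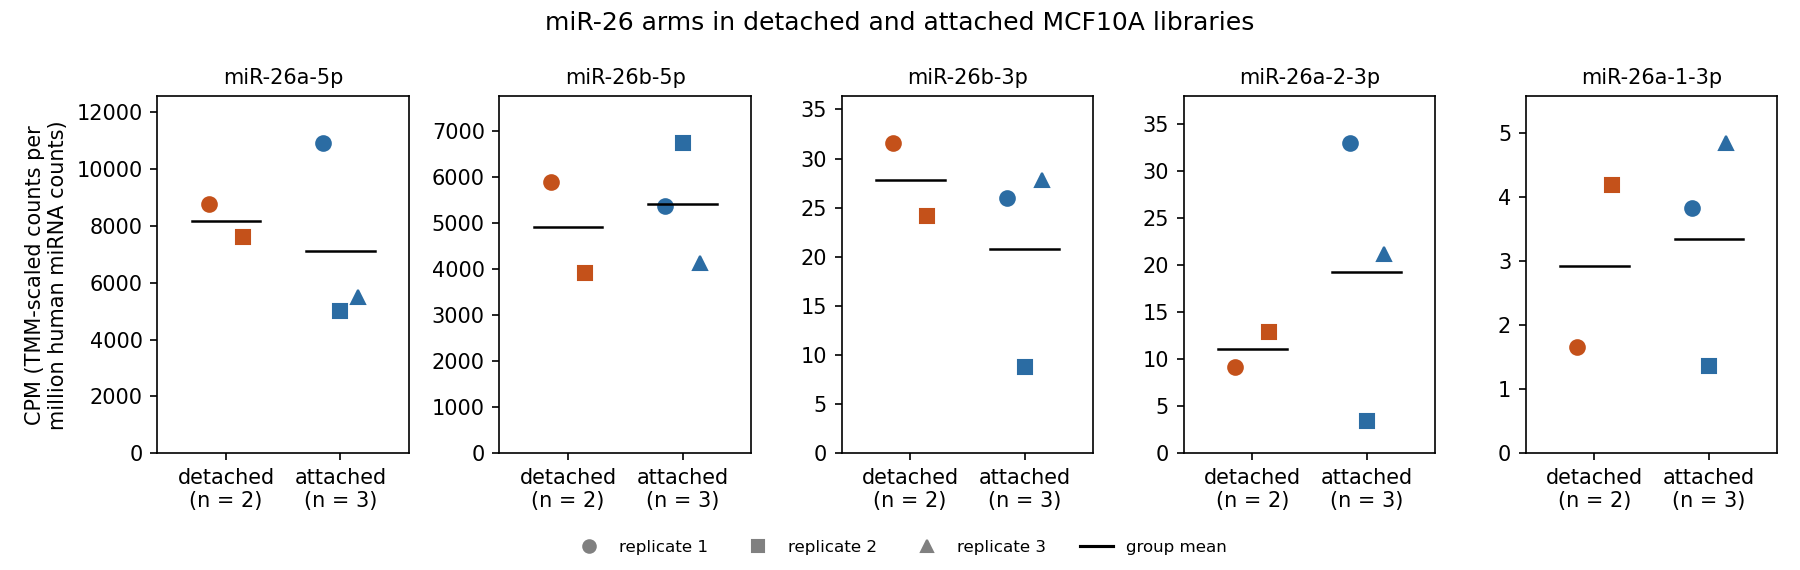
Level of each miR-26 arm (vertical axes, CPM, each starting at 0) in the 2 detached and 3 attached libraries; symbols mark the replicate number and lines the group means. The groups overlap in every panel, and attached replicate 2 (blue square) is the lowest library for every arm except miR-26b-5p, where it is the highest.

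hsa-miR-26b-3p, the passenger arm of the CTDSP1 hairpin, measured 31.6 and 24.1 CPM in detached, against 26.0, 8.80 and 27.8 CPM in attached libraries. Only attached replicate 2, with 58 counts, lay apart from the other 4. The log2 fold change was 0.42 (SE 0.70, 95% interval -1.19 to 2.02, edgeR adjusted p 0.891).

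hsa-miR-26a-2-3p, which marks the CTDSP2 locus, measured 9.17 and 12.9 CPM in detached, against 33.0, 3.49 and 21.2 CPM in attached libraries. Both detached libraries lay below attached replicates 1 and 3 and above attached replicate 2, which had 23 counts. The means were 11.1 ± 2.66 CPM in detached (SD, n = 2) and 19.2 ± 14.9 CPM in attached cells (SD, n = 3), with 9.46 times between the highest and lowest library. Its log2 fold change, the largest in size of the 5, was -0.80 (SE 0.91, 95% interval -2.88 to 1.28, edgeR adjusted p 0.857).

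hsa-miR-26a-1-3p, which marks the CTDSPL locus, was the scarcest arm, with 26 and 55 counts in detached and 44, 9 and 57 in attached libraries. These correspond to 1.66 and 4.18 CPM in detached, against 3.83, 1.37 and 4.84 CPM in attached libraries. Detached replicate 1 and attached replicate 2 were low and the other 3 high, so the split did not follow the groups. The log2 fold change was -0.21 (SE 0.76, 95% interval -1.95 to 1.53, edgeR adjusted p 0.953). In the authors' deposited table the 5 members also had adjusted p-values of 0.998 each, with log2 fold changes from -0.81 (miR-26a-2-3p, SE 0.84) to 0.29 (miR-26b-3p, SE 0.77).

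When attached replicate 2 was left out, 0 of the 5 members and 23 of all 679 tested miRNAs passed (3.39%). Since that library was left out for deviating in these same data, p-values without it may be too small. The guides then had log2 fold changes near 0, at -0.00290 for miR-26a-5p (SE 0.48, 95% interval -1.03 to 1.02) and 0.05 for miR-26b-5p (SE 0.47, 95% interval -0.94 to 1.04). miR-26b-3p gave 0.05 (SE 0.49) and miR-26a-1-3p -0.59 (SE 0.56). miR-26a-2-3p gave -1.30 (SE 0.51, 95% interval -2.38 to -0.23, edgeR adjusted p 0.222), with an unadjusted p of 0.0209, where 89 of the 679 miRNAs were below 0.05 in either direction (13.1%), 24 of them lower (3.53%). Its detached libraries lay below both remaining attached ones, as did those of 145 of the 679 miRNAs (21.4%), while the groups did not overlap in either direction in 287 (42.3%).

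**Figure D2:**
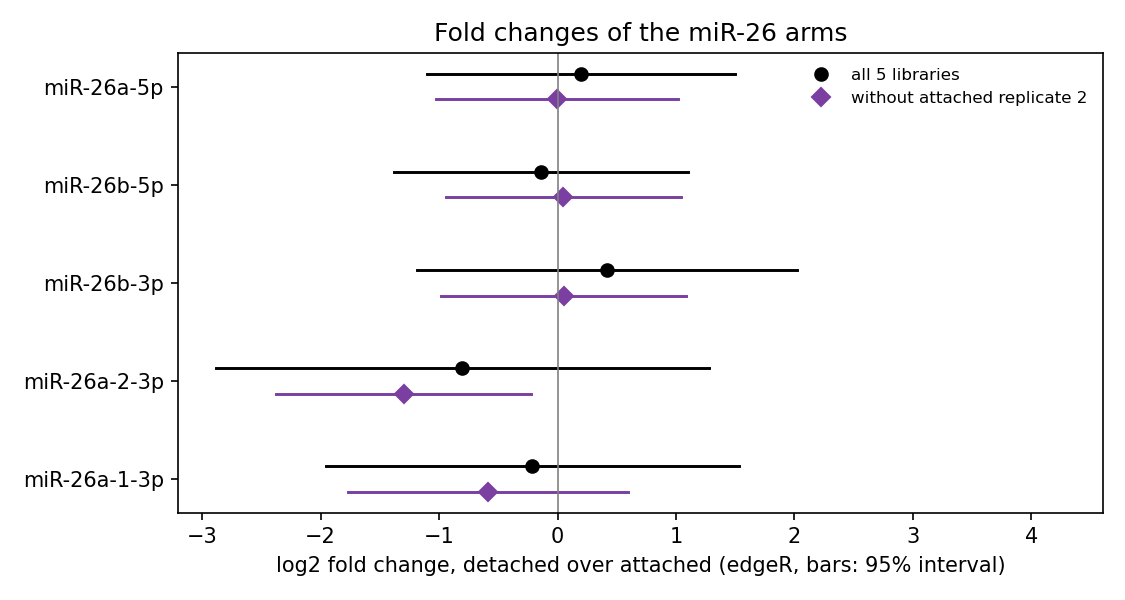
Log2 fold change of each miR-26 arm, detached over attached, with 95% intervals from edgeR (horizontal axis), for all 5 libraries (black circles) and without attached replicate 2 (purple diamonds). The 10 intervals include 0 except that of miR-26a-2-3p without attached replicate 2, from -2.38 to -0.23, whose adjusted p was 0.222.

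The guides' summed share of human miRNA counts, which depends on the library total it is divided by, and 4 ratios between arms, which do not depend on library scaling, were each tested with an exact permutation test over the 10 splits of 5 libraries into 2 and 3, two-sided, which cannot give a p under 0.1. Together the guides held 1.46% and 1.44% of human miRNA counts in detached, against 1.54%, 0.878% and 1.10% in attached libraries. The 95% Wilson intervals of these shares, which cover counting error only, ran from 1.45 to 1.46% and 1.43 to 1.44% in detached, and from 1.53 to 1.54%, 0.872 to 0.884% and 1.09 to 1.10% in attached libraries. The means were 1.45 ± 0.0150% in detached (SD, n = 2) and 1.17 ± 0.335% in attached cells (SD, n = 3), a difference of 0.277 percentage points (exact permutation p 0.4, Benjamini-Hochberg adjusted over the 5 quantities 0.875). The detached libraries both lay inside the attached range, and the difference was 0.131 percentage points without attached replicate 2.

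The ratio of miR-26a-5p to miR-26b-5p sets the guide of the CTDSPL and CTDSP2 hairpins against that of CTDSP1. It was 1.48 and 1.94 in detached, against 2.03, 0.741 and 1.32 in attached libraries, so miR-26a-5p was the more abundant guide in every library except attached replicate 2. On the log2 scale the means were 0.76 ± 0.27 in detached (SD, n = 2) and 0.33 ± 0.73 in attached cells (SD, n = 3), a difference of 0.43 (exact permutation p 0.5, adjusted 0.875). Without attached replicate 2 the difference was 0.05.

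Between the passenger arms of miR-26a, the CTDSP2 arm miR-26a-2-3p held most counts in every library. Its share was 84.7% (95% Wilson interval 78.5 to 89.3%, of 170 counts) and 75.6% (69.5 to 80.7%, of 225) in detached libraries. In attached replicates 1, 2 and 3 it was 89.6% (86.3 to 92.2%, of 423), 71.9% (54.6 to 84.4%, of 32) and 81.4% (76.7 to 85.4%, of 307). The detached shares lay within the attached range, and the interval of attached replicate 1 did not meet those of attached replicates 2 and 3. The log2 ratio of miR-26a-1-3p to miR-26a-2-3p averaged -2.03 ± 0.59 in detached (SD, n = 2) and -2.17 ± 0.89 in attached cells (SD, n = 3), a difference of 0.14 (exact permutation p 0.9, adjusted 0.9), which was 0.57 without attached replicate 2. How reads matching both arms were assigned is not given, and the Wilson intervals do not cover that. Host mRNAs were not measured, so these shares describe arms and not transcription of the loci.

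Guide to passenger ratios were then compared. For miR-26a, the guide was 807 and 443 times as abundant as both passenger arms together in detached libraries, against 295, 1012 and 210 times in attached ones. Both detached ratios exceeded those of attached replicates 1 and 3, while attached replicate 2 was the highest of all, from 32 passenger counts. The log2 ratio averaged 9.22 ± 0.61 in detached (SD, n = 2) and 8.63 ± 1.19 in attached cells (SD, n = 3), a difference of 0.59 (exact permutation p 0.6, adjusted 0.875). Without attached replicate 2 the difference was 1.26, with an exact permutation p of 0.333, the smallest that 2 libraries against 2 allow.

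For miR-26b, the guide was 187 and 162 times as abundant as its passenger arm in detached, against 206, 759 and 149 times in attached libraries. The log2 ratio averaged 7.44 ± 0.14 in detached (SD, n = 2) and 8.16 ± 1.24 in attached cells (SD, n = 3), a difference of -0.71 (exact permutation p 0.7, adjusted 0.875). Attached replicate 2 had the highest ratio of the 5 libraries, and the difference was -0.00895 without it.

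**Figure D3:**
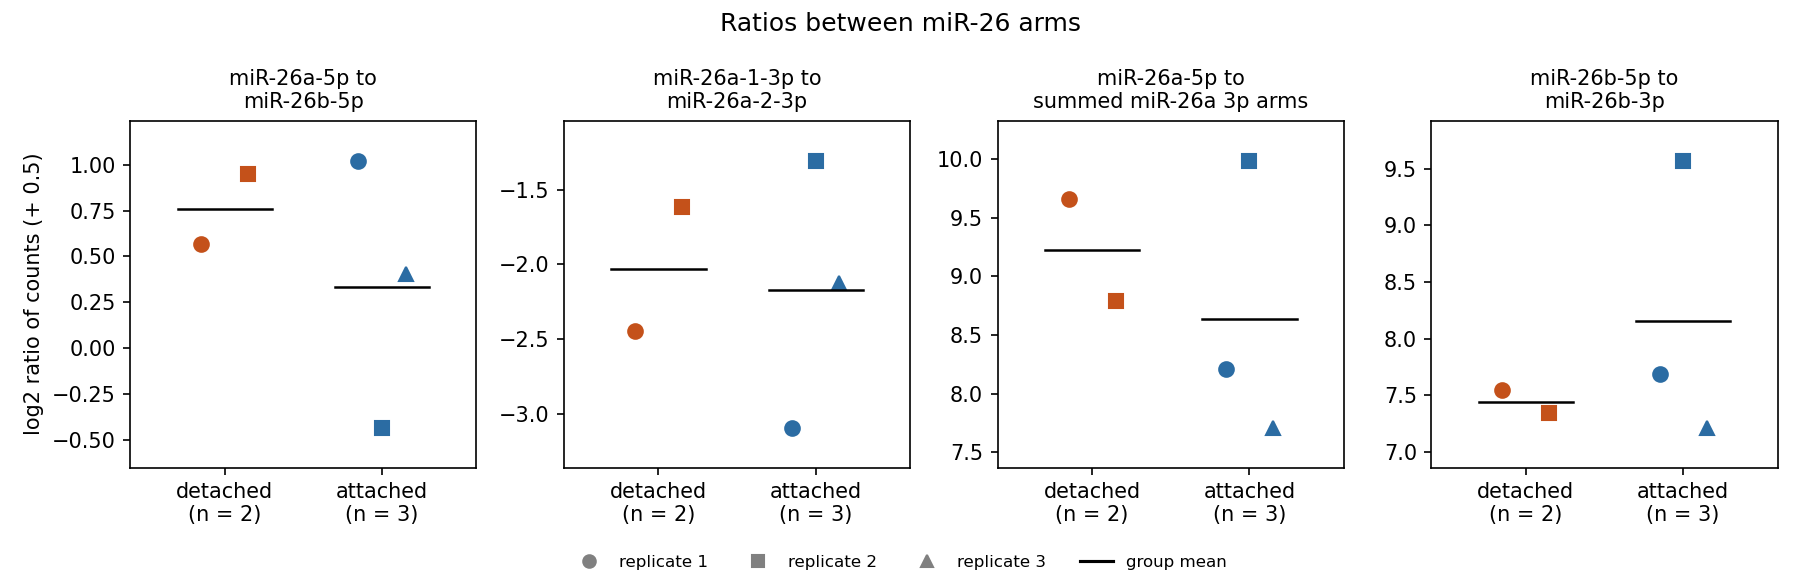
Log2 ratios of counts (0.5 added to each) between miR-26 arms in the 2 detached and 3 attached libraries; symbols mark the replicate number, lines the group means, and the axes do not start at 0. Attached replicate 2 (blue square) is at an end of each panel, the lowest for miR-26a-5p to miR-26b-5p and the highest in the other 3.

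A ratio of this kind was computed for the 178 hairpins with both arms tested, as the log2 ratio of the more abundant to the other arm. Arms were paired by shared name, so each hairpin here is a name that may cover more than 1 locus. The 178 include miR-26b but not miR-26a, whose 3p arms are named by locus. The miR-26a value sets a guide from both loci against summed passenger arms and is an unlike measure. With all libraries the change in the ratio, detached minus attached, had a median of -0.24 over the 178. Of these hairpins 10% were below -1.97 and 10% above 1.51, so the values of miR-26a (0.59) and miR-26b (-0.71) lay well inside. Without attached replicate 2 the median was -0.03 and the corresponding range -1.24 to 1.09. The miR-26b value was then near the median, and 10 of 178 hairpins (5.62%) had a change at least as high as that of miR-26a. In that comparison 31 of the 178 hairpins (17.4%) had both detached libraries above both attached ones, as miR-26a did. Relative to the mean of attached replicates 1 and 3, the log2 ratio in attached replicate 2 was higher by 2.02 for miR-26a and 2.12 for miR-26b. Over the 178 hairpins this difference was positive for 101 and negative for 77, with a median of 0.60, 10% below -2.13 and 10% above 3.10.

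**Figure D4:**
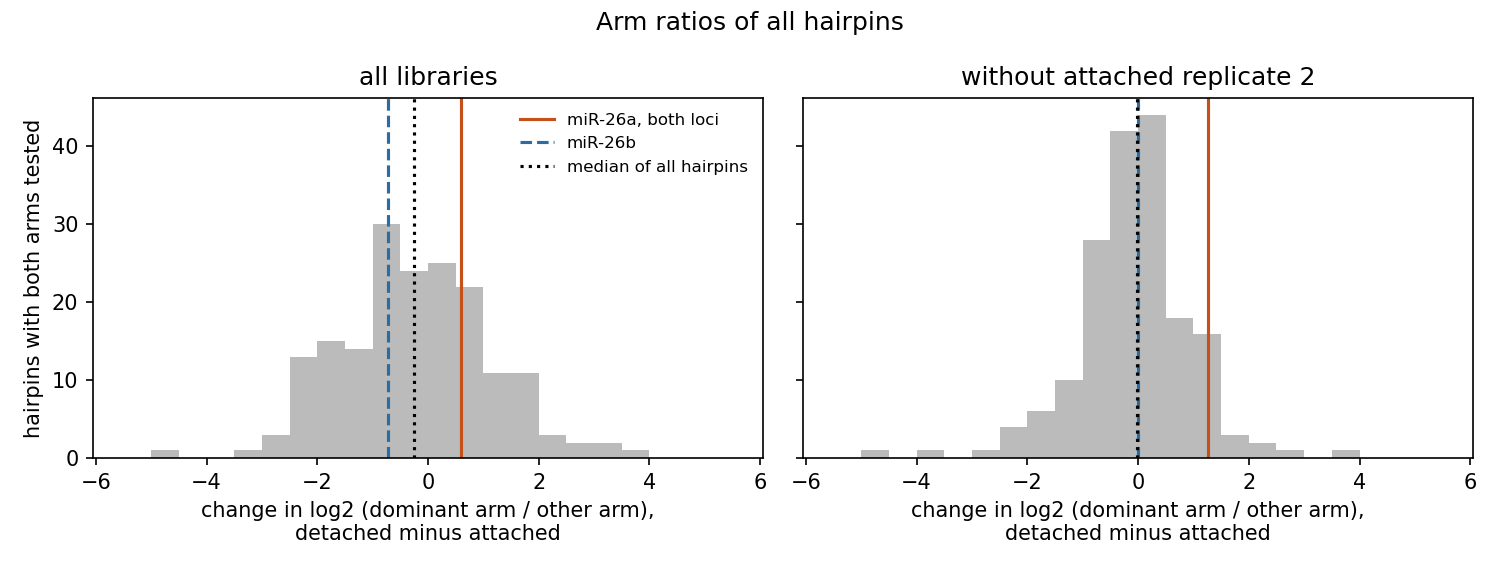
Change in the log2 ratio of the more abundant to the other arm, detached minus attached (horizontal axis), for 178 hairpins (grey bars, counts of hairpins), with all libraries and without attached replicate 2. miR-26a (orange, with passenger arms summed, not among the 178) stands at 0.59 and 1.26, and miR-26b (dashed blue) at -0.71 and -0.00895. The medians of all hairpins (dotted) are at -0.24 and -0.03.

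The other human miRNAs with the miR-26 seed were not detected. miR-1297 and miR-4465 each had 0 counts in all 5 libraries. For miR-4465 this allows levels of up to 0.190 and 0.285 per 1000000 human miRNA counts in detached libraries and up to 0.247, 0.341 and 0.291 in attached ones. miR-1297 is 17 nt long and the libraries were size-selected for 18 to 24 nt, so its 0 sets no limit on its level.

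The profiles of the members over the 5 libraries were compared by the root mean square difference in log2 CPM (with 0.5 added), each centred on its own mean, as a description without a test. Nearest to miR-26a-5p among 696 other tested miRNAs were miR-361-5p (0.134), miR-34b-3p (0.157), miR-522-3p (0.158), miR-152-3p (0.194) and miR-376b-5p (0.228), against a median of 0.722. Of these, miR-361-5p had 1106 and 1117 CPM in detached and 1617, 798 and 906 CPM in attached libraries, whereas miR-522-3p had at most 1.83 CPM. Nearest to miR-26b-5p were miR-597-5p (0.0906), miR-148b-5p (0.107), miR-1266-5p (0.113), miR-548o-3p (0.124) and miR-21-5p (0.127), against a median of 0.702. Among them miR-1266-5p was scarce, with at most 1.67 CPM. miR-21-5p, which is widely described as raised in carcinomas, had 378040 and 280653 CPM in detached and 444475, 524436 and 317330 CPM in attached libraries. The guides were less alike than these, at 0.522 from each other, which placed miR-26b-5p at position 159 from miR-26a-5p. The member nearest to miR-26a-5p was miR-26b-3p, an arm of another hairpin, at 0.503 (position 147). The miR-26b-5p profile was at 0.847 from that of miR-26b-3p, from the same hairpin, while miR-26a-5p was at 0.868 from miR-26a-2-3p and 0.678 from miR-26a-1-3p.

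**Figure D5:**
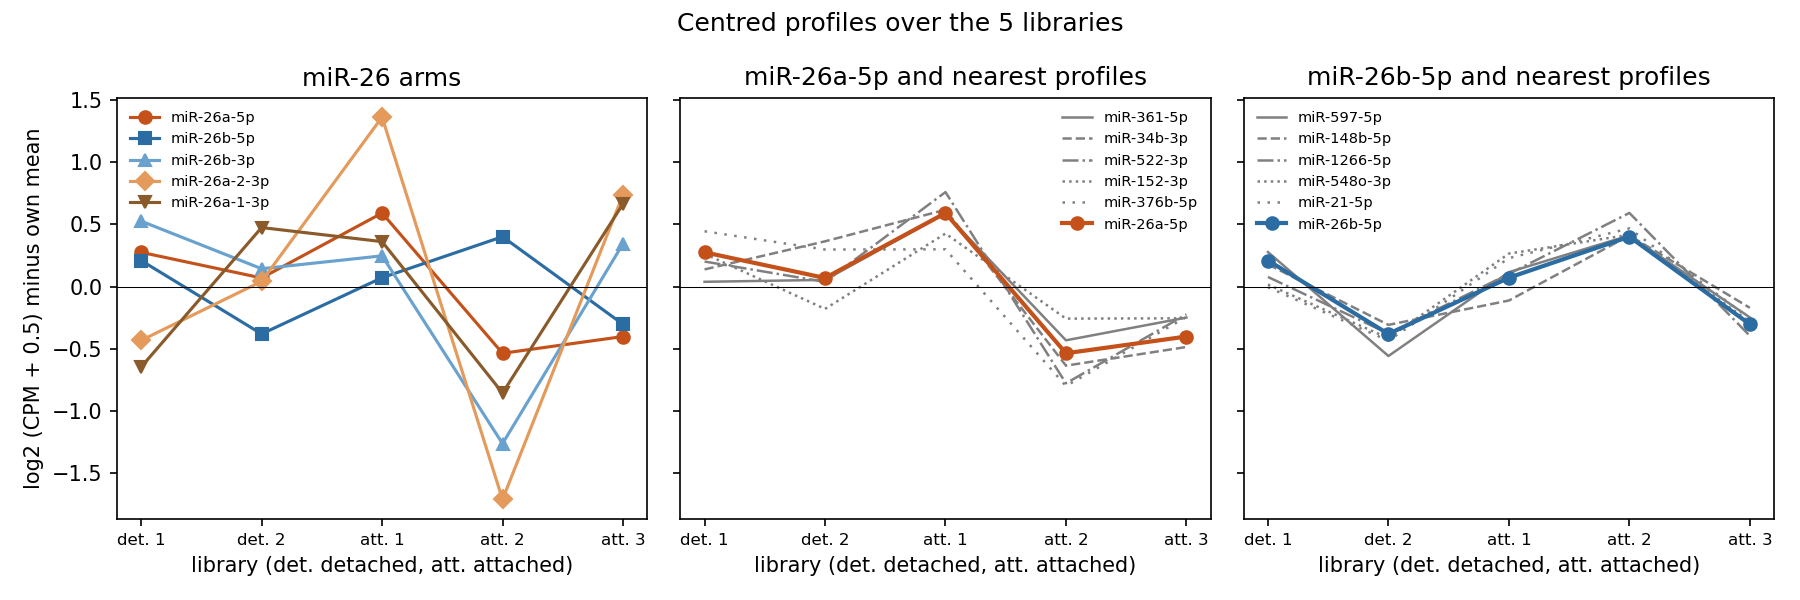
Log2 CPM (with 0.5 added) minus each miRNA's own mean (vertical axis) over the 5 libraries (horizontal axis), for the 5 miR-26 arms and for each guide with its 5 nearest profiles in grey. In attached replicate 2 the 3 passenger arms and miR-26a-5p dip while miR-26b-5p is at its highest.

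In attached replicate 2, relative to the mean of attached replicates 1 and 3, log2 CPM was lower by 0.63 for miR-26a-5p, 1.37 for miR-26a-1-3p, 2.76 for miR-26a-2-3p and 1.56 for miR-26b-3p, and 0.52 higher for miR-26b-5p. Over the 697 tested miRNAs the median size of this difference was 1.02, and 42 of them (6.03%) were as low as miR-26a-2-3p or lower.

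Among 6 other miRNAs described as repressors of EZH2, 5 were tested and 0 passed. Their 5 log2 fold changes were below 0, as were 357 of all 697 tested. The median of the 5 was -0.26, against -0.04 over all tested miRNAs. miR-138-5p gave -0.56 (SE 0.59), let-7b-5p -0.26 (SE 0.48) and let-7a-5p -0.31 (SE 0.59). let-7a-5p, which restrains RAS and cell cycle genes, measured 78234 and 41675 CPM in detached, against 48638, 119557 and 54200 CPM in attached libraries. With attached replicate 2 left out, 0 of the 5 passed (3.39% over all), let-7a-5p gave 0.22 and the median of the 5 was -0.06.

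Of 13 miRNAs described as restraining CDK4/6, cyclins or E2F, 12 were tested and 0 passed, with 6 positive and 6 negative log2 fold changes and a median of 0.00331. miR-15a-5p, a repressor of BCL2 and cyclins, had 2167 and 4903 CPM in detached, against 1573, 149 and 1442 CPM in attached libraries. It gave a log2 fold change of 1.74 (SE 0.92), with an edgeR adjusted p of 0.707. miR-29a-3p gave -1.28 (SE 0.73), with 89282 CPM in attached replicate 2, and miR-195-5p 0.63 (SE 0.93). In the fit without attached replicate 2, 0 of 12 passed, against 23 of all 679 (3.39%), a background at which few or none of 12 would be called, and the 3 gave 1.22, -0.38 and 0.13.

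Of 29 other miRNAs from introns of protein-coding genes, 28 were tested and 0 passed, with 11 positive and 17 negative log2 fold changes and a median of -0.27. miR-33b-5p, from an intron of the sterol regulator SREBF1, had 37.9 and 35.5 CPM in detached, against 311, 114 and 55.9 CPM in attached libraries. Its log2 fold change of -2.13 (SE 0.88) had an edgeR adjusted p of 0.654 with all libraries and 0.0788 without attached replicate 2. miR-186-5p (-4.45, SE 1.75) and miR-25-3p (-2.92, SE 1.32) had 13121 and 6337 CPM in attached replicate 2, at most 744 CPM in any other library, and gave -0.69 and -0.61 without it. On leaving out attached replicate 2, 0 of 28 passed, at the same background of 3.39%, and the median was -0.10, against -0.06 over all 679 tested.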

How the data were processed

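Small RNAs of 18 to 24 nt, size-selected from 50 µg of total RNA, were sequenced in 2 detached and 3 attached MCF10A libraries, per the labels' protocols. The deposited tables hold raw read counts for 49965 named small RNAs, and their 5 summary rows hold 0 counts. Genome build hg38 and DESeq2 are named in the submitters' processing notes; the aligner and counter: not given in the sources used here. Log2 fold changes, their standard errors and p-values were read from the authors' deposited comparison table by the names in its header. Their direction was taken as detached over attached, and the 5 members had the same signs as in the main fit here. The 5 per-library columns were not used.

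Here, library size was the total of the human miRNA rows. The test across rows was that of edgeR 4.0.16 under R 4.3.3 (TMM, quasi-likelihood F test, two-sided, filterByExpr with minimum count 10 and total 15), with p-values adjusted over all 697 tested rows and a threshold of 0.05. Standard errors are the absolute log2 fold change over the square root of F. The fit was also run on simulated counts with known changes in 200 rows. The outcome is not reported here, so it gives no measure of the power to find a change. Floors of 3 counts and 95% Wilson intervals cover counting error alone, as PCR copies could not be recognised. Named miRNAs were the members, their seed relatives, 3 miRNAs of lowest p per list and the 5 nearest profiles of each guide. Members and lists were chosen with earlier results of these data known. Alternatives were library totals without TMM, upper-quartile factors, DESeq2 1.42.0 (on all rows and on the filtered ones), limma-voom (limma 3.58.1) with and without library quality weights, other low-count filters (none, or 100 CPM in 2 libraries), all named rows, a replicate block, no pseudocount in ratios, shares of all named counts, and leaving out each library.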

Additional observations from a re-analysis of the deposited data

How the results depend on the processing

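No member passed the threshold under any alternative run. miR-26a-2-3p stayed negative and miR-26b-3p positive in each of their 14 alternatives. The stricter filter left neither them nor miR-26a-1-3p to test. Leaving out each library in turn gave -0.00290 to 0.63 for the log2 fold change of miR-26a-5p, -0.41 to 0.20 for miR-26b-5p, -0.98 to 0.35 for miR-26a-1-3p, -1.30 to -0.17 for miR-26a-2-3p and 0.05 to 0.66 for miR-26b-3p. Those that turned a sign were miR-26a-5p without attached replicate 2 (-0.00290); miR-26b-5p without detached replicate 2 (0.20) and without attached replicate 2 (0.05); and miR-26a-1-3p without detached replicate 1 (0.35) and without attached replicate 3 (0.12). Library totals without TMM gave 0.12 for miR-26b-5p and 0.00734 for miR-26a-1-3p; they also moved the median of all miRNAs to 0.20, against -0.04, and relative to that median both stayed negative (-0.07 and -0.19). Quality weights gave 0.0162 for miR-26b-5p. The cause of the other sign changes was not tested.

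The replicate block gave 0.16 for miR-26a-1-3p, -0.01 for miR-26a-2-3p and 0 calls. Deviations from the group means correlated at -0.26 for number 1 and -0.23 for number 2. With 2 detached libraries these deviations mirror each other, so the correlations cannot show whether replicate numbers paired the libraries.

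Over all human miRNAs 0 were called, with 33 higher and 16 lower at unadjusted p under 0.05, against 12 with DESeq2 on all rows with counts (949 of 1916 given an adjusted p), 12 with DESeq2 on the rows passing the low-count filter (added after the data were seen), 13 with quality weights, 19 without the filter and 0 to 23 on leaving out a library, the 23 without attached replicate 2.

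The log2 ratio of miR-26a-1-3p to miR-26a-2-3p ran from -0.32 (without attached replicate 1) to 0.57, with -0.27 without detached replicate 2. The other ratio differences and the guides' share kept their sign, with ranges of 0.05 to 0.77 (miR-26a-5p to miR-26b-5p), 0.13 to 1.26 (miR-26a guide to passengers), -1.18 to -0.00895 (miR-26b) and 0.131 to 0.460 percentage points.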
